A study of Homo sapiens with 18 samples.

Results

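The 45 genes described here encode proteins that carry a cell through the G2/M boundary and mitosis. They were taken by symbol from a table of TPM, a length-normalized measure of transcript abundance, that names 26863 gene symbols once mitochondrially encoded rows are dropped, and all 45 were present. They comprise 8 genes for cyclins, CDK1, its activators and its small subunits (CCNA2, CCNB1, CCNB2, CDK1, CDC25B, CDC25C, CKS1B, CKS2), 3 mitotic kinases (PLK1, AURKA, NEK2) and 4 members of the chromosomal passenger complex (AURKB, BIRC5, INCENP, CDCA8). A further 5 act in the spindle checkpoint (BUB1, BUB1B, BUB3, TTK, MAD2L1), 6 at the centromere and kinetochore (CENPA, CENPE, CENPF, NUF2, NDC80, SPC25), 5 are kinesins (KIF11, KIF20A, KIF23, KIF2C, KIF4A) and 4 are spindle assembly factors (TPX2, HMMR, DLGAP5, ASPM). The remaining members are 3 cytokinesis genes (PRC1, ANLN, ECT2), 3 genes of anaphase and its ubiquitin ligase (CDC20, UBE2C, PTTG1), the transcription factors FOXM1 and MYBL2, the chromosome enzyme TOP2A and the proliferation marker MKI67.

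Entry into mitosis depends on cyclin B bound to CDK1, which is held inactive by the kinases WEE1 and PKMYT1 and released by CDC25 phosphatases. Most of these genes are transcribed late in the cell cycle, through the MuvB complex with MYBL2 (B-MYB) and FOXM1, and the DREAM complex holds many of the same promoters silent in resting cells. CDKN1A (p21), a target of p53, is a known route to that silencing. In prostate cancer, expression of these genes is widely read as a measure of proliferation. In a bulk library, fewer cells in G2 or mitosis and less RNA per cell cannot be told apart.

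RNA was sequenced from 16D, a castration-resistant prostate cancer line derived from LNCaP, infected with lentivirus for Cas9 and 1 guide RNA. A guide to the AAVS site served as control, and 2 guides target OGDHL, which encodes a mitochondrial enzyme related to the first subunit of the 2-oxoglutarate dehydrogenase complex. Cells were kept for 6 weeks either in the vehicle DMSO or in 10 uM enzalutamide, an antagonist of the androgen receptor. This gave 6 groups of 3 libraries: control guide, guide 1 and guide 2, each in vehicle and in enzalutamide. All 6 groups carry Cas9 and a guide, and the sources used here do not give whether the infected cells were pools or clones. The labels do not say that the replicates were separate cultures, so p-values measure the spread between these libraries, which may be technical. TPM keep no read depth, so the depth behind each value is unknown and no counting interval is given.

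OGDHL itself (chr10:49734643-49762379, minus strand, GRCh38 in GENCODE 29) was checked first. It stood at 4.68, 4.86 and 4.62 TPM in control vehicle, 1.93, 2.29 and 3.16 TPM with guide 1 in vehicle and 6.17, 7.31 and 6.54 TPM in the vehicle libraries labelled guide 2. In enzalutamide it stood at 7.63, 7.85 and 7.43 TPM with the control guide, 2.56, 2.62 and 2.30 TPM with guide 1 and 4.14, 4.33 and 4.35 TPM with guide 2. OGDHL RNA was therefore lower with guide 1 in both media and with guide 2 in enzalutamide, but not in the vehicle libraries labelled guide 2, where limma gave a log2 change of 0.42 (adjusted p = 0.00088) that did not pass with median-of-ratios scaling (0.12, adjusted p = 0.19). An RNA level does not test whether the gene was cut.

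Mitochondrially encoded genes held 50.1% to 73.8% of the TPM of a library, with the highest shares in guide 1 vehicle replicates 1 and 2 (73.8% and 69.9%, against 57.2% in replicate 3). All values below are therefore TPM rescaled to a sum of 1000000 without those genes. The vehicle libraries labelled guide 2 stood apart: across genes they correlated with the rest at 0.887 to 0.920, whereas other pairs reached 0.950 to 0.996, and 1407 to 1630 table rows were at 0, against 3042 to 4498 elsewhere. The 10 luminal prostate markers summed to 2514 to 6305 TPM and none was under 1 TPM in every library. Of markers of other cell types, 3 of 4 basal, 4 of 6 fibroblast, 4 of 4 endothelial and 4 of 5 leukocyte genes stayed under 1 TPM in all libraries. The 6 fibroblast genes summed to 8.47 to 19.0 TPM.

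Because these genes are known for shared promoter elements, the stretch before the start site is shown for 5 of them, chosen after their values were seen: CDC20 and PLK1, with the largest falls, CCNB1, CDC25B, which departed from the rest, and MYBL2, without a match. Each is the 120 bases before a RefSeq start on the plus strand, 5′ to 3′, at chr1:43358861-43358980, chr16:23678769-23678888, chr5:69167030-69167149, chr20:3796190-3796309 and chr20:43666994-43667113 of GRCh38.p14. In GENCODE 29, exons of transcripts of the same gene that start earlier overlap each stretch. Capitals mark CCAAT, which reads ATTGG on the other strand, and elements of the cell cycle homology region (CHR) type. The first of these is TTTGAA, which on the other strand reads TTCAAA, and the others, each the same on both strands, are TTTAAA as well as the letters TTCGAA.
CDC20: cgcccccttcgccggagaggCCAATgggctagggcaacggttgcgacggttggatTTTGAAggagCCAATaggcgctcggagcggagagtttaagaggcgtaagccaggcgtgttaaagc
PLK1: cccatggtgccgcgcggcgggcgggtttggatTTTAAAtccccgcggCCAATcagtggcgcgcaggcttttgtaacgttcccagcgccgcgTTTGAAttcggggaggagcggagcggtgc
CCNB1: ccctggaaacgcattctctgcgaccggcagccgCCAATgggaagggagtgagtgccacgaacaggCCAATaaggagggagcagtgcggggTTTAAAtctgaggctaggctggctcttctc
CDC25B: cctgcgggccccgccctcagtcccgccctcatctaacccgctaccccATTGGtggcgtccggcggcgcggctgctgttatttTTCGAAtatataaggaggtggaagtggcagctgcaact
MYBL2: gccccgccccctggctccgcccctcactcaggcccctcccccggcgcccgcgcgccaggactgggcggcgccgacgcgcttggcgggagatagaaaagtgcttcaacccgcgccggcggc

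RefSeq windows of 300 bases, 250 before a start and 50 after it, were found for 38 of the 45 genes and numbered 48. AURKA, BIRC5, BUB3, FOXM1, TPX2, TTK and UBE2C had no entry. A CHR-type element on either strand lay in 39 of the 48 windows (81.2%), against 25.1% of all 35116 windows in the table and 17.5% of the 14566 windows of genes tested here. A CCAAT box lay in 36 windows (75.0%), against 34.6% and 35.7%, and both lay in 31 (64.6%), against 9.70% and 7.08%. In 2 windows the matches shared bases. Matches differed in place: the median first base was -30 for the CHR type and -82 for CCAAT, counted from the start site. CCNA2, NEK2, AURKB and MYBL2 had no CHR-type match in any window, and their median change in the vehicle libraries labelled guide 2, described below, was -2.23 (log2), against -1.93 for the 34 genes with a match. A match is a run of letters, not evidence of binding, and CDC25B was matched in only some of its windows: the stretch printed is from 1 of 4.

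**Figure D1:**
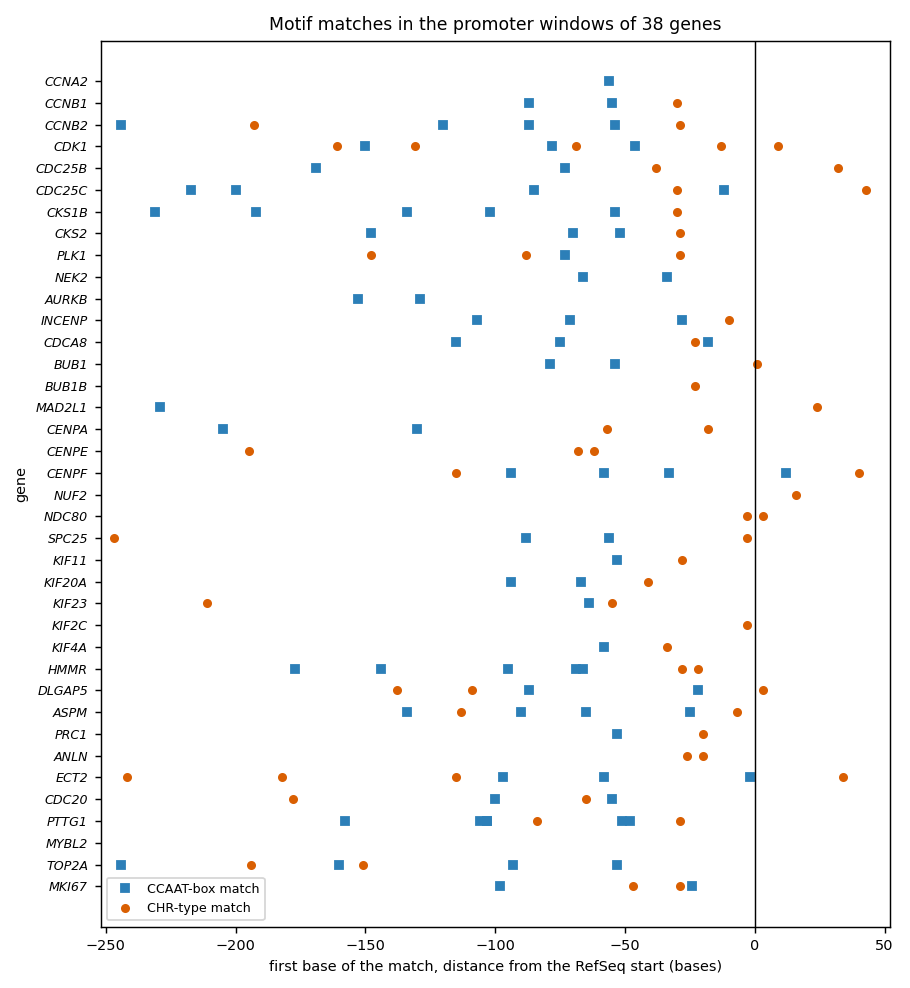
Matches to CHR-type elements (circles) and the CCAAT box (squares) in the RefSeq windows of 38 genes, by distance in bases of the first matched base from the start site (vertical line); genes with several windows share a line. CHR-type matches centre near -30 and CCAAT matches near -82, and MYBL2 has neither.

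Across the 6 groups the 45 genes fell into a repeated order. By group mean, guide 2 in vehicle was the lowest group for 44 of 45 genes and guide 2 in enzalutamide the second lowest for 44. Control enzalutamide lay below control vehicle for 44, and guide 1 in enzalutamide lay above control enzalutamide for 45. For BUB3 the guide 2 groups were nearly level, with means of 48.5 TPM in vehicle and 48.7 TPM in enzalutamide. The order was not counted over all genes. Of the 16067 genes fitted, 8262 had an estimate below 0 for enzalutamide in control cells. For guide 1 against control in enzalutamide 8057 had one above 0, and for guide 2 against control in vehicle 5724 had one below 0. The highest group was guide 1 vehicle for 19 genes, control vehicle for 14 and guide 1 enzalutamide for 11. These neighbours at the top differed little: the mean difference of the 45 genes from the control vehicle mean, in log2(TPM + 1), was 0.094, 0.072 and -0.0081 in the guide 1 vehicle libraries and 0.020, -0.073 and 0.026 in guide 1 enzalutamide. It was -0.31, -0.42 and -0.34 in control enzalutamide, -0.63, -0.65 and -0.61 in guide 2 enzalutamide, and -2.02, -1.94 and -1.90 in the vehicle libraries labelled guide 2. The lower 3 groups did not overlap with each other or with the upper 3. Summed over the 45 genes, RNA was 1968 to 2064 TPM in control vehicle, 1496 to 1618 TPM in control enzalutamide, 1257 to 1292 TPM in guide 2 enzalutamide and 492 to 535 TPM in the vehicle libraries labelled guide 2.

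**Figure D2:**
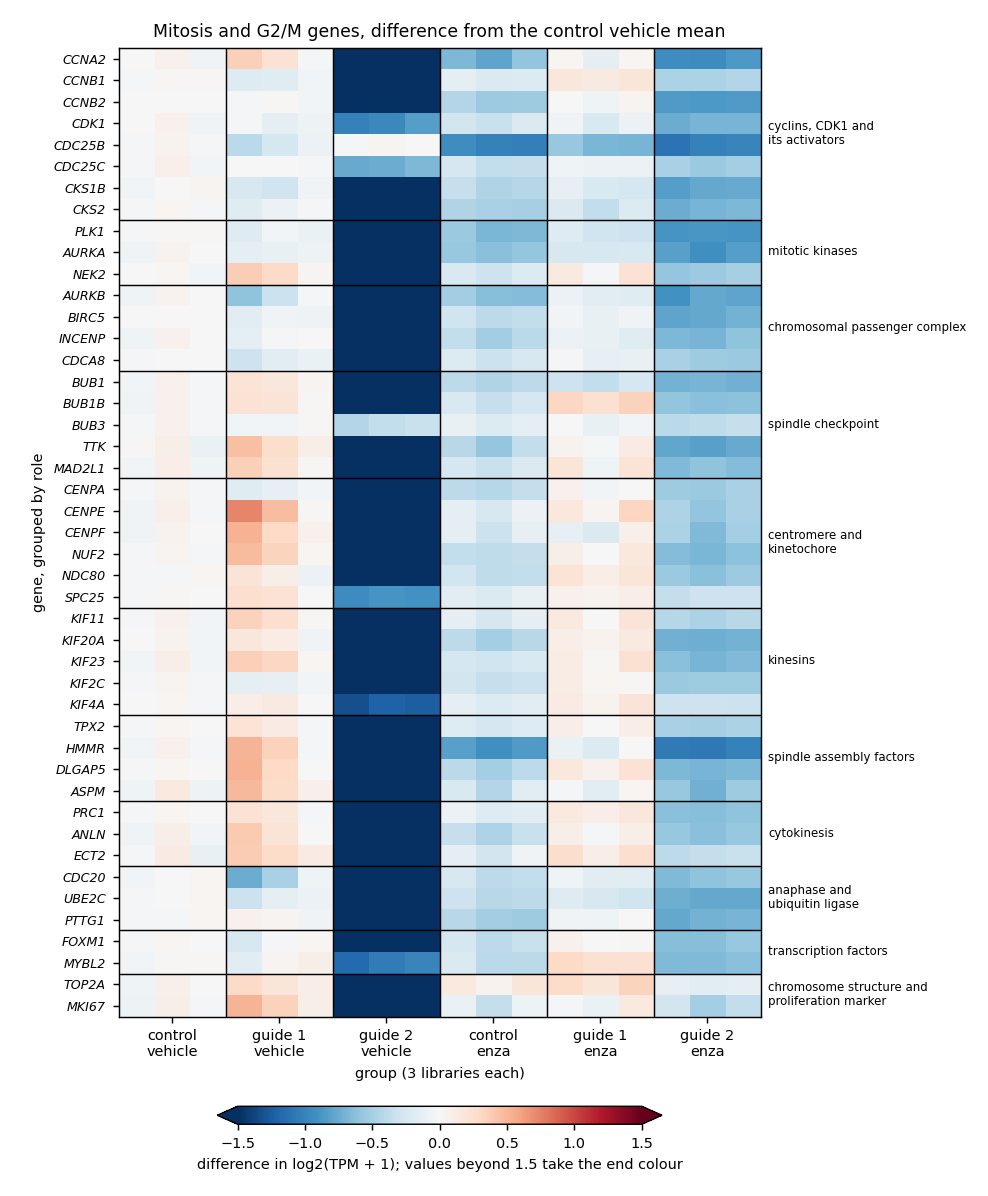
Difference of each of the 45 genes (rows, grouped by role) from the control vehicle mean in each of the 18 libraries (columns, 3 per group in replicate order), in log2(TPM + 1); blue is lower, red higher, and values beyond 1.5 take the end colour. The vehicle libraries labelled guide 2 have the lowest group mean for 44 genes, all but CDC25B, though for BUB3 they overlap guide 2 enzalutamide. Guide 1 vehicle replicate 3 lies nearer to control vehicle than replicates 1 and 2 do.

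The first comparison asks what 6 weeks of enzalutamide changed in cells with the control guide. Of the 45 genes, 39 fell and 0 rose (limma on log2(TPM + 1), called at a Benjamini-Hochberg adjusted p under 0.05), where 24.8% of all 16067 genes tested fell and 23.1% rose. Their median change was -0.33, against -0.01 over all genes. For 43 genes each enzalutamide library was lower than each vehicle library, as it was for 33.6% of all genes. The falls were modest: from -0.15 to -0.99 in log2(TPM + 1) among those called.

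The largest fall was in CDC25B, a phosphatase that activates CDK1 at mitotic entry, from 46.5, 49.3 and 47.0 TPM in vehicle to 24.4, 23.1 and 22.8 TPM in enzalutamide (log2 change -0.99, SE 0.065, adjusted p = 9.1e-09 by limma). Its groups were far apart, with a ratio of means of 0.492. Cyclin B1, encoded by CCNB1, went from 135, 140.1 and 140.2 TPM to 126, 119 and 119.6 TPM (log2 change -0.19, SE 0.039, adjusted p = 0.0011), a small but separate shift. CDK1, the kinase it activates, went from 116, 123 and 113 TPM to 96.7, 92.6 and 101 TPM (log2 change -0.28, SE 0.057, adjusted p = 0.00087). All 8 genes of this role fell, from -0.19 in CCNB1 to -0.99 in CDC25B, and the libraries of CCNB1 and of CDK1 did not overlap between the groups.

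PLK1, the kinase of centrosome maturation and anaphase entry, fell from 68.5, 71.2 and 70.9 TPM to 47.5, 43.1 and 43.8 TPM (log2 change -0.64, SE 0.053, adjusted p = 1.2e-07 by limma). AURKA, the centrosomal Aurora kinase, fell from 27.4, 29.6 and 28.3 TPM to 18.9, 18.1 and 18.7 TPM (log2 change -0.59, SE 0.037, adjusted p = 5.2e-09). The third kinase, NEK2, which separates centrosomes, also fell (-0.25, adjusted p = 0.013). In the passenger complex, which corrects chromosome attachment, its kinase AURKB fell from 40.8, 44.4 and 42.7 TPM to 29.4, 27.0 and 26.9 TPM (log2 change -0.60, SE 0.11, adjusted p = 0.00026). Survivin, its subunit encoded by BIRC5, fell from 102, 102 and 102 TPM to 82.9, 77.7 and 78.8 TPM (log2 change -0.35, SE 0.038, adjusted p = 2.7e-06). INCENP and CDCA8 fell too, so all 7 genes of these roles did, and none of the 4 pairs of groups listed overlapped.

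All 5 checkpoint genes fell, most in TTK, the checkpoint kinase MPS1, from 8.37, 8.81 and 7.66 TPM to 5.93, 5.19 and 6.16 TPM (log2 change -0.46, SE 0.084, adjusted p = 0.00036 by limma). BUB3, a checkpoint scaffold that also has roles outside mitosis, moved least of the 5, from 62.0, 66.1 and 62.2 TPM to 58.4, 54.8 and 57.7 TPM (log2 change -0.15, SE 0.043, adjusted p = 0.0086). At the centromere 4 of 6 genes fell. The centromeric histone CENPA fell from 4.08, 4.35 and 4.07 TPM to 2.94, 2.85 and 3.04 TPM (log2 change -0.39, SE 0.045, adjusted p = 3.9e-06). CENPF, a large kinetochore protein, did not pass, with 43.1, 46.7 and 44.8 TPM against 40.7, 35.6 and 41.0 TPM (-0.20, adjusted p = 0.15), and nor did the kinesin-like motor CENPE (-0.16, adjusted p = 0.35).

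Among the kinesins 4 of 5 fell, led by KIF20A, a motor of the central spindle, from 71.3, 74.2 and 69.7 TPM to 54.2, 49.9 and 53.5 TPM (log2 change -0.44, SE 0.059, adjusted p = 1.8e-05 by limma). KIF11, which pushes spindle poles apart, was not called (-0.17, adjusted p = 0.070). HMMR, a microtubule-binding spindle assembly factor, had the second largest fall of all, from 36.9, 39.6 and 37.5 TPM to 21.2, 19.7 and 20.6 TPM (log2 change -0.86, SE 0.11, adjusted p = 9.6e-06). Of the cytokinesis genes PRC1, which bundles midzone microtubules, and ANLN, the scaffold anillin, fell (-0.15, adjusted p = 0.037, and -0.38, adjusted p = 0.0016), and ECT2 was not called (-0.15, adjusted p = 0.15). The 3 genes of anaphase all fell. CDC20, which activates the anaphase-promoting complex, went from 162, 167 and 170.2 TPM to 141, 127 and 128 TPM (log2 change -0.33, SE 0.12, adjusted p = 0.029), and securin, encoded by PTTG1, from 88.6, 88.4 and 91.5 TPM to 66.8, 62.3 and 61.8 TPM (log2 change -0.49, SE 0.043, adjusted p = 2.6e-07).

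Both transcription factors fell. FOXM1 went from 97.2, 102 and 99.6 TPM to 83.6, 75.7 and 79.0 TPM (log2 change -0.32, SE 0.062, adjusted p = 0.0006 by limma) and MYBL2 from 18.8, 19.7 and 19.6 TPM to 16.5, 14.4 and 14.3 TPM (log2 change -0.34, SE 0.066, adjusted p = 0.00054). The proliferation marker MKI67 did not pass: its libraries stood at 94.5, 105 and 98.2 TPM in vehicle and at 92.5, 77.2 and 94.2 TPM in enzalutamide (-0.18, adjusted p = 0.20). TOP2A, the topoisomerase that untangles chromosomes, was the member with an estimate above 0, at 45.6, 50.2 and 47.6 TPM and 53.1, 49.4 and 54.5 TPM (0.13, adjusted p = 0.098). Its groups overlapped. With TPM as deposited, mitochondrial genes included, the direction held but 20 of 44 tested members passed and 0 rose, where 11.6% of all genes fell.

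The next comparisons set each OGDHL guide against the control guide, both in enzalutamide, and share the 3 control libraries. With guide 1, 36 of 45 genes rose and 0 fell, where 16.3% of all genes rose and 14.3% fell, with a median change of 0.35 against 0.00 over all genes. With guide 2, 0 rose and 32 fell, where 5.02% of all genes fell and 8.97% rose, with a median of -0.27 against 0.02. Libraries did not overlap for 40 genes that were higher with guide 1 (25.3% of all genes) and for 43 that were lower with guide 2 (17.7% of all genes). The guides were thus on opposite sides of the control. Guide 2 less guide 1, a direct test that does not use the control, gave 45 of 45 genes called lower. Of all genes 18.8% were called lower and 22.2% higher. The median of the 45 was -0.62 against 0.03 over all genes, from -0.33 in BUB3 to -0.95 in HMMR. For all 45 genes each guide 2 library was lower than each guide 1 library (27.5% of all genes).

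For CCNB1 the values were 156, 153 and 157 TPM with guide 1 (log2 change 0.35, SE 0.039, adjusted p = 8.7e-06, limma against the control guide) and 99.3, 99.2 and 102 TPM with guide 2 (log2 change -0.28, SE 0.039, adjusted p = 0.00024), around the control values given above. CDK1 had 114, 100.1 and 110.4 TPM with guide 1 (log2 change 0.16, SE 0.057, adjusted p = 0.048) and 69.8, 72.3 and 72.3 TPM with guide 2 (log2 change -0.43, SE 0.057, adjusted p = 0.00013). Guide 1 libraries of CDK1 were close to the control, with replicate 2 just below the highest control library, while those of guide 2 lay under all control libraries. All 8 genes of this role rose with guide 1, CCNA2, the cyclin of S phase and early mitosis, most (0.66, adjusted p = 7e-05), and 6 fell with guide 2. CDC25B had 31.7, 29.3 and 28.9 TPM with guide 1 (log2 change 0.34, SE 0.065, adjusted p = 0.0011) and 21.6, 23.0 and 23.5 TPM with guide 2 (-0.045, adjusted p = 0.76), the latter overlapping the control libraries.

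The 3 mitotic kinases rose with guide 1 and fell with guide 2. PLK1 stood at 61.4, 56.8 and 56.6 TPM with guide 1 (log2 change 0.37, SE 0.053, adjusted p = 8.3e-05 by limma) and at 37.4, 37.8 and 37.4 TPM with guide 2 (log2 change -0.25, SE 0.053, adjusted p = 0.0054). AURKA stood at 23.9, 23.9 and 24.2 TPM (log2 change 0.36, SE 0.037, adjusted p = 4.3e-06) and 15.7, 14.5 and 15.5 TPM (log2 change -0.27, SE 0.037, adjusted p = 0.00019). Of the passenger complex all 4 genes rose with guide 1 and 3 fell with guide 2. BIRC5 had 99.2, 94.4 and 98.0 TPM with guide 1 (log2 change 0.28, SE 0.038, adjusted p = 6.1e-05) and 58.5, 59.6 and 61.9 TPM with guide 2 (log2 change -0.41, SE 0.038, adjusted p = 6.4e-06). AURKB had 40.0, 37.9 and 37.4 TPM with guide 1 (log2 change 0.46, SE 0.11, adjusted p = 0.0043), and with guide 2 it had 22.3, 24.7 and 24.1 TPM, which lay below the control libraries without passing (-0.22, adjusted p = 0.22).

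In the checkpoint 3 of 5 genes rose with guide 1 and 5 fell with guide 2. TTK had 8.60, 8.18 and 9.13 TPM (log2 change 0.51, SE 0.084, adjusted p = 0.00029 by limma) and 4.42, 4.28 and 4.51 TPM (log2 change -0.32, SE 0.084, adjusted p = 0.019). BUB1, a checkpoint kinase, had 11.2, 10.7 and 11.6 TPM with guide 1, short of the threshold (0.096, adjusted p = 0.18), and 8.22, 8.35 and 8.20 TPM with guide 2 (log2 change -0.30, SE 0.052, adjusted p = 0.0013). BUB3 had likewise 63.8, 58.7 and 61.6 TPM (0.11, adjusted p = 0.078) and 47.7, 48.7 and 49.8 TPM (log2 change -0.22, SE 0.043, adjusted p = 0.0031). At the centromere 4 of 6 genes rose with guide 1 and 3 fell with guide 2. CENPA had 4.39, 4.02 and 4.21 TPM (log2 change 0.40, SE 0.045, adjusted p = 8.4e-06) and 2.56, 2.52 and 2.68 TPM, the latter not called (-0.14, adjusted p = 0.054). CENPF was called with guide 2 alone, at 31.9, 28.0 and 31.2 TPM (-0.35, adjusted p = 0.040), against 41.2, 38.6 and 47.3 TPM with guide 1 (0.11, adjusted p = 0.48), and CENPE with neither.

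All 5 kinesins rose with guide 1 and 4 fell with guide 2. KIF20A had 76.7, 74.3 and 78.9 TPM (log2 change 0.54, SE 0.059, adjusted p = 7e-06 by limma) and 43.0, 42.7 and 43.4 TPM (log2 change -0.28, SE 0.059, adjusted p = 0.0049). HMMR had the largest rise of the 45 with guide 1, at 35.4, 32.8 and 37.8 TPM (log2 change 0.76, SE 0.11, adjusted p = 8.4e-05), while its guide 2 values of 17.7, 17.5 and 18.3 TPM did not pass (-0.19, adjusted p = 0.30). PRC1 had the largest fall with guide 2, at 22.4, 22.2 and 22.8 TPM (log2 change -0.47, SE 0.055, adjusted p = 4.5e-05), against 39.1, 37.9 and 39.6 TPM with guide 1 (log2 change 0.29, SE 0.055, adjusted p = 0.0010). ANLN rose with guide 1, at 15.7, 14.4 and 15.8 TPM (0.43, adjusted p = 0.0012), and was not called with guide 2, at 9.62, 9.24 and 9.66 TPM (-0.20, adjusted p = 0.14). These differences between genes were not themselves tested.

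Of the anaphase genes PTTG1 rose with guide 1, at 86.6, 85.7 and 90.2 TPM (log2 change 0.45, SE 0.043, adjusted p = 1.8e-06 by limma), and fell with guide 2, at 52.2, 54.3 and 54.7 TPM (log2 change -0.24, SE 0.043, adjusted p = 0.0018). CDC20 was called with neither guide, at 159, 148 and 149 TPM (0.21, adjusted p = 0.21) and 105, 109 and 112 TPM (-0.28, adjusted p = 0.15), although both sets lay outside the control range. FOXM1 stood at 104, 99.8 and 101 TPM (log2 change 0.35, SE 0.062, adjusted p = 0.00062) and 63.3, 63.4 and 66.5 TPM (log2 change -0.30, SE 0.062, adjusted p = 0.0050), and MYBL2 at 24.0, 22.9 and 22.9 TPM (log2 change 0.60, SE 0.066, adjusted p = 7.8e-06) and 11.8, 11.8 and 12.2 TPM (log2 change -0.31, SE 0.066, adjusted p = 0.0060). Guide 1 libraries of both factors were above all control libraries and guide 2 libraries below them. MKI67, at 98.2, 92.4 and 109.8 TPM and 82.0, 69.5 and 76.8 TPM, was called with neither (0.19, adjusted p = 0.22, and -0.20, adjusted p = 0.27). TOP2A, at 58.2, 54.2 and 60.6 TPM and 43.9, 42.4 and 43.5 TPM, fell with guide 2 (-0.27, adjusted p = 0.0084) and was not called with guide 1 (0.14, adjusted p = 0.11). With TPM as deposited 7 of 44 members rose with guide 1 (2.15% of all genes) and 3 fell with guide 2 (0.574%), and guide 2 less guide 1 gave 37 lower (6.65%). With the vehicle libraries labelled guide 2 left out of the fit, 38 members fell with enzalutamide in control cells, 36 rose with guide 1, 29 fell with guide 2 and 45 were lower with guide 2 than guide 1. Over the 14985 genes of that fit these counts were 3660, 2450, 711 and 2884.

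**Figure D3:**
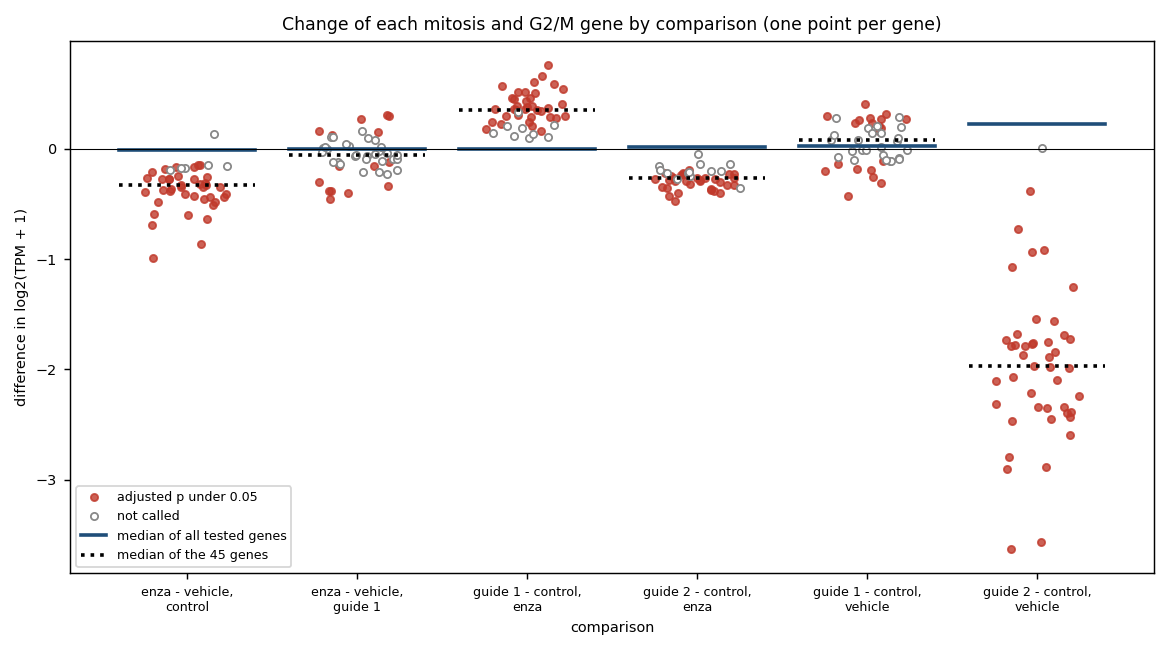
Change of each of the 45 genes, in log2(TPM + 1), in 6 comparisons; filled points passed an adjusted p under 0.05 by limma, open points did not, dotted lines are the median of the 45 genes and solid lines that of all 16067 genes tested. Most of the 45 genes lie below 0 for enzalutamide in control cells (median -0.33), above 0 for guide 1 in enzalutamide (0.35), below 0 for guide 2 in enzalutamide (-0.27) and far below 0 in the vehicle libraries labelled guide 2 (-1.97).

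In vehicle, the libraries labelled guide 2 had the largest differences of the study in these genes. Against control vehicle 44 of 45 fell and 0 rose, where 24.0% of all genes fell and 50.9% rose, with a median of -1.97 against 0.23 over all genes. Libraries did not overlap for 44 genes (27.4% of all genes). Called changes in log2(TPM + 1) ran from -0.38 in BUB3 and -0.73 in CDC25C to -3.63 in CDC20. This scale understates falls of low genes: CDC25C kept 0.444 of its control mean, less than the 0.518 of CDK1, whose change was -0.94. OGDHL RNA was not lower in these libraries, and they stood apart from the rest. The part of OGDHL loss in these falls was not tested, and no direction here is ascribed to it. The count was 44 with each library of the comparison left out in turn, where 3532 to 3701 of all genes fell. With median-of-ratios scaling, which puts the median of all genes at -0.07, the split of all genes moved from 8185 higher and 3853 lower to 5411 and 6596, and 45 of 45 members fell.

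CDC20 dropped from 166 ± 4.21 TPM (SD, n = 3) in control vehicle to 13.1, 11.5 and 13.1 TPM (log2 change -3.63, SE 0.12, adjusted p = 6.8e-13 by limma), 0.0755 times the control mean. PLK1 dropped from 70.2 ± 1.45 TPM (SD, n = 3) to 4.74, 5.45 and 4.94 TPM (log2 change -3.56, SE 0.053, adjusted p = 1.5e-16), 0.0719 times the control mean. AURKA had 3.28, 3.27 and 3.20 TPM (log2 change -2.79, SE 0.037, adjusted p = 4.5e-17) and HMMR 3.71, 4.11 and 4.86 TPM (log2 change -2.90, SE 0.11, adjusted p = 3e-12). In each of these 4 genes the 3 libraries lay under the lowest library of every other group.

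CCNB1 stood at 26.6, 26.6 and 26.4 TPM (log2 change -2.34, SE 0.039, adjusted p = 4.4e-16 by limma), AURKB at 6.68, 7.49 and 7.84 TPM (-2.39, adjusted p = 2.7e-11) and BIRC5 at 17.4, 18.3 and 18.6 TPM (-2.43, adjusted p = 2.7e-16). The checkpoint kinases BUB1, at 1.35, 1.62 and 1.57 TPM (-2.59, adjusted p = 2.8e-15), and TTK, at 1.39, 1.65 and 1.72 TPM (-1.84, adjusted p = 3.4e-11), were under 2 TPM in each library. CENPA was lower still, at 0.467, 0.535 and 0.584 TPM (-1.76, adjusted p = 4.2e-14). These are genes of entry, attachment and checkpoint, and each had its 3 libraries close together and far from control.

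CENPF stood at 6.60, 7.71 and 7.88 TPM (-2.45, adjusted p = 2e-11 by limma), CENPE at 1.65, 1.68 and 1.90 TPM (-1.88, adjusted p = 4.5e-09) and KIF20A at 12.2, 13.8 and 14.0 TPM (-2.34, adjusted p = 3.6e-14). PRC1 and ANLN, of cytokinesis, had 6.34, 6.63 and 7.07 TPM (-2.24, adjusted p = 3.3e-14) and 3.21, 3.78 and 3.85 TPM (-1.77, adjusted p = 5.5e-11). PTTG1 had 28.8, 31.0 and 30.3 TPM (-1.54, adjusted p = 1.3e-13). The proliferation genes fell here as well: MKI67 had 23.1, 27.1 and 23.8 TPM (-1.97, adjusted p = 3.6e-10) and TOP2A 10.6, 11.6 and 11.9 TPM (-1.98, adjusted p = 3.5e-13).

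Smaller falls were seen in FOXM1, at 28.1, 31.1 and 31.4 TPM (-1.69, adjusted p = 3e-12 by limma), MYBL2, at 8.07, 8.80 and 9.23 TPM (-1.07, adjusted p = 1.2e-09), CDK1, at 57.6, 59.3 and 65.5 TPM (log2 change -0.94, SE 0.057, adjusted p = 9.2e-10), and BUB3, at 46.4, 48.7 and 50.3 TPM (log2 change -0.38, SE 0.043, adjusted p = 1.1e-06). CDK1 thus kept 0.518 of its control mean and BUB3 0.764, against 0.0719 for PLK1. CDC25B was the exception, at 47.1, 49.0 and 47.4 TPM against 46.5, 49.3 and 47.0 TPM in control vehicle (0.0069, adjusted p = 0.93). Its groups overlapped, although with median-of-ratios scaling it fell with the others (-0.34, adjusted p = 8.8e-06).

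**Figure D4:**
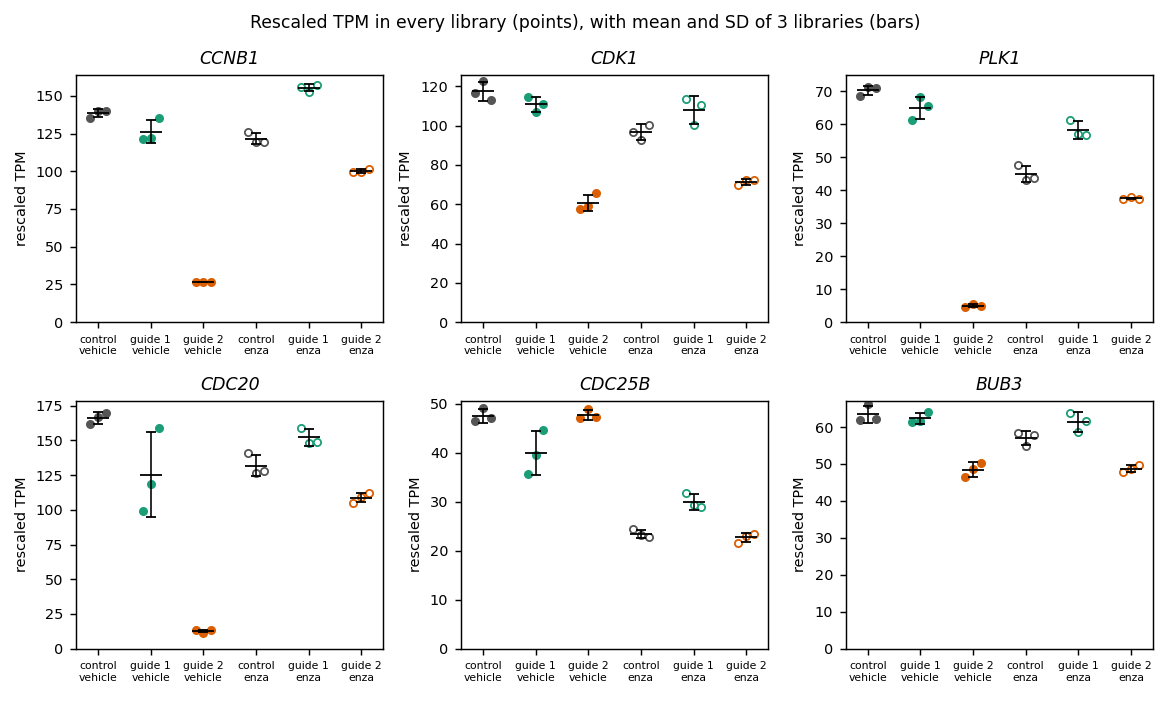
Rescaled TPM of CCNB1, CDK1, PLK1, CDC20, CDC25B and BUB3 in every library (points; filled for vehicle, open for enzalutamide), with the mean and SD of 3 libraries (bars). PLK1 and CDC20 average 5.05 and 12.6 TPM in the vehicle libraries labelled guide 2, whereas CDC25B there is at its control vehicle level and low in all 3 enzalutamide groups.

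Of 7 genes that restrain CDKs or mitotic entry, 5 rose and 2 fell in the same libraries (4 and 2 with median-of-ratios scaling), where 50.9% of all genes rose and 24.0% fell. CDKN1A, the p53 target p21, had a mean of 2141 TPM against 47.1 TPM in control vehicle (log2 change 5.48, limma adjusted p = 1.3e-15). SFN, which encodes 14-3-3 sigma and retains cyclin B complexes outside the nucleus, rose by 4.96 (limma adjusted p = 2.2e-15). The kinases that phosphorylate CDK1 fell: PKMYT1 had a log2 change of -1.16 (limma adjusted p = 6.9e-05) and WEE1 of -0.77 (adjusted p = 5.8e-09). CDKN1A was 134 TPM with guide 2 in enzalutamide, against 51.2 TPM with the control guide (log2 change 1.37, limma adjusted p = 5.2e-07), and 38.3 TPM with guide 1 (-0.41, adjusted p = 0.0065). With the control guide the enzalutamide less vehicle change of CDKN1A was 0.12 (limma adjusted p = 0.38). CDKN1A did not stand for the list: with enzalutamide in control cells 0 of the 7 rose and 4 fell (23.1% and 24.8% of all genes). In enzalutamide 3 rose and 3 fell with guide 1 (16.3% and 14.3%), and 3 rose and 1 fell with guide 2 (8.97% and 5.02%). The part of these inhibitors in the changes of the 45 genes was not tested. In these libraries markers of other cell types were higher too but low, with basal markers summing to 2.40 to 3.25 TPM (0.600 TPM or less elsewhere) and leukocyte markers to 2.84 to 3.00 TPM (0.773 TPM or less elsewhere), mostly from KRT15 (mean 2.04 TPM) and LYZ (mean 2.55 TPM). Their part in the result was not tested.

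Within guide 2, enzalutamide less vehicle gave 43 of 45 members called higher and 1 called lower. Of all genes 23.0% were called higher and 49.7% lower. The median of the members was 1.36 against -0.20 over all genes. This comparison shares the vehicle libraries just described. PLK1 went from 4.74, 5.45 and 4.94 TPM to 37.4, 37.8 and 37.4 TPM (2.67, adjusted p = 2.4e-15 by limma) and CDC20 from 13.1, 11.5 and 13.1 TPM to 105, 109 and 112 TPM (3.02, adjusted p = 6.3e-12). CDC25B was the member that fell (-1.04, adjusted p = 1.6e-09), and BUB3 was not called (0.0085, adjusted p = 0.87).

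Guide 1 in vehicle gave a mixed result: 12 members rose and 8 fell, where 21.1% and 11.1% of all genes did, with a median of 0.08 against 0.02. It rested on single libraries and on the scaling. No member passed without control vehicle replicate 1 or 3, or without guide 1 vehicle replicate 1 or 2. In those fits 121 to 263 of all genes rose and 35 to 54 fell. Without guide 1 vehicle replicate 3, 24 rose and 12 fell, where 4716 of 16045 genes rose and 4375 fell. Without control vehicle replicate 2, 9 rose and 3 fell, where 2989 of 16043 genes rose and 719 fell. With median-of-ratios scaling 5 rose and 13 fell, where 2768 of 15948 genes rose and 3231 fell. With TPM as deposited 0 rose and 30 of 44 fell, where 57.5% of all genes fell and the median was -0.35 against -0.32. Libraries did not overlap for 4 higher members (22.2% of all genes) and 12 lower ones (8.55%).

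The spread came from the guide 1 libraries, whose median SD over the 45 genes was 0.129 in log2(TPM + 1), against 0.0323 to 0.0719 in the other groups. CDC20 stood at 99.0, 118 and 159 TPM (-0.43, adjusted p = 0.024 by limma), with replicate 3 close to the 162, 167 and 170.2 TPM of the control. AURKB had the same pattern, at 27.8, 34.0 and 42.2 TPM (-0.31, adjusted p = 0.041). CENPE ran the opposite way, at 15.8, 12.9 and 9.24 TPM against 8.74, 9.66 and 8.95 TPM (0.40, adjusted p = 0.034), and so did MKI67, at 142, 126 and 105 TPM (0.31, adjusted p = 0.043), and CENPF, at 64.8, 55.6 and 47.0 TPM (0.30, adjusted p = 0.047). In each of these 5 genes replicate 3, which had the lowest mitochondrial share of the 3, was nearest to control, and replicate 1, with the highest share, was farthest. With TPM as deposited the estimates of CENPE, MKI67 and CENPF turned to -0.043, -0.17 and -0.18. The part of that share in these differences was not tested.

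Of the other members with guide 1 in vehicle, CCNB1 had 121, 122 and 135 TPM (-0.14, adjusted p = 0.027 by limma), CDK1 115, 107 and 111 TPM (-0.082, adjusted p = 0.27) and PLK1 61.4, 68.0 and 65.4 TPM (-0.11, adjusted p = 0.11). FOXM1 had 84.3, 97.3 and 102 TPM (-0.079, adjusted p = 0.34), TOP2A 58.6, 54.2 and 51.1 TPM (0.19, adjusted p = 0.035, but -0.29 with TPM as deposited) and HMMR 54.6, 48.7 and 37.5 TPM (0.28, adjusted p = 0.056). BUB3 stood at 61.4, 61.7 and 64.0 TPM, with replicates 1 and 2 just below its control range. No call of this comparison held with each library left out in turn.

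Within guide 1, enzalutamide less vehicle raised 6 members and lowered 9, where 19.5% and 23.3% of all genes rose and fell, with a median of -0.06 against 0.00. BUB1 fell most, from 16.4, 16.0 and 14.6 TPM to 11.2, 10.7 and 11.6 TPM (-0.45, adjusted p = 6.3e-06 by limma). CDC25B fell from 35.6, 39.6 and 44.6 TPM to 31.7, 29.3 and 28.9 TPM (-0.40, adjusted p = 0.0002), so it was lower in enzalutamide with each of the 3 guides. CDC20 and CCNB1 had the largest rises, and CDC20 only just passed, from 99.0, 118 and 159 TPM to 159, 148 and 149 TPM (0.30, adjusted p = 0.0499), with libraries that overlapped. CCNB1 rose from 121, 122 and 135 TPM to 156, 153 and 157 TPM (0.30, adjusted p = 2.7e-05), and MYBL2 rose from 17.2, 19.9 and 20.6 TPM to 24.0, 22.9 and 22.9 TPM (0.26, adjusted p = 0.0052). Without guide 1 vehicle replicate 3 these counts were 8 and 19, where 4844 of 16045 genes rose and 4544 fell. With TPM as deposited 11 rose and 0 of 44 fell, where 26.3% of all genes rose and 3.54% fell.

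Whether the drug effect differed between guides was tested by the interaction term. For guide 1 it was called above 0 for 26 of 45 members and called below 0 for 0. Of all genes 11.6% were called above and 15.2% below. Of the member estimates, called or not, 39 were above 0 and 6 below. The median term was 0.32 against -0.01, as the falls seen in control cells were smaller or absent with guide 1. It passed for CCNB1 (0.49, adjusted p = 2e-05 by limma), PLK1 (0.48, adjusted p = 0.00029) and FOXM1 (0.43, adjusted p = 0.0027), and not for BUB1 (-0.042, adjusted p = 0.70), CENPF (-0.19, adjusted p = 0.38) or MKI67 (-0.13, adjusted p = 0.57). The guide 1 term uses the widely spread guide 1 vehicle libraries. With 1 library left out its count ran from 23 to 32, and that of all genes called above 0 from 1379 to 3897. For guide 2 the interaction was called above 0 for 44 members (19.5% of all genes) and called below 0 for 0 (43.7%). The count of 44 depends on the vehicle libraries labelled guide 2.

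The 45 genes varied together across libraries. Pearson's r between a gene and the mean of the other 44, in log2(TPM + 1) over all 18 libraries, had a median of 0.990 and was over 0.9 for 43 genes. The exceptions were CDC25B (-0.25) and BUB3 (0.82). These values are carried by the 3 low libraries, and over the other 15 libraries the median was 0.949, with 33 genes over 0.9, CDC25B at 0.79 and the lowest, CDC20, at 0.547. They describe these libraries, whose groups and scaling the genes share.

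Genes of neighbouring processes outside the 45 were counted in the same fit. Their counts stand beside those of all genes, of which 24.8% fell with enzalutamide in control cells, 16.3% rose with guide 1 and 5.02% fell with guide 2 in enzalutamide, and 24.0% fell and 50.9% rose in the vehicle libraries labelled guide 2. Of 49 other mitosis genes, 34 fell and 0 rose with enzalutamide in control cells, 31 rose and 0 fell with guide 1 in enzalutamide, 26 fell and 0 rose with guide 2 in enzalutamide, and 49 of 49 fell in the vehicle libraries labelled guide 2. CENPN, a reader of CENPA chromatin, fell most with enzalutamide (-1.20, limma adjusted p = 4.6e-13) and rose most with guide 1 in enzalutamide (1.07, adjusted p = 1.2e-11). PSRC1, a spindle protein, fell most in the vehicle libraries labelled guide 2 (-3.11, adjusted p = 1.6e-14). Of 41 DNA replication and G1/S genes, 25 fell and 2 rose with enzalutamide in control cells, 32 rose and 2 fell with guide 1 in enzalutamide, 25 fell and 0 rose with guide 2 in enzalutamide, and 38 fell and 2 rose in the vehicle libraries labelled guide 2. There the helicase subunit MCM6 (-2.10, adjusted p = 7.4e-16) and TK1, a thymidine kinase (-2.00, adjusted p = 1.7e-08), fell most, and PCNA, the replication clamp (0.72, adjusted p = 6.1e-11), and TYMS, thymidylate synthase (0.63, adjusted p = 2e-08), rose. With TPM as deposited fewer genes passed. Of all genes 11.6% then fell with enzalutamide in control cells, and in enzalutamide 2.15% rose with guide 1 and 0.574% fell with guide 2. For the replication list 5 of 38 fell with enzalutamide, near the share of all genes, 5 rose with guide 1 and 1 fell with guide 2. For the mitosis list these counts were 17 of 46, 7 and 3.

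Of 16 condensin and cohesin genes, 6 fell and 1 rose with enzalutamide in control cells, 9 rose with guide 1 and 6 fell with guide 2 in enzalutamide, and 13 fell and 2 rose in the vehicle libraries labelled guide 2, led by the condensin subunits NCAPG (-1.93, limma adjusted p = 4.9e-13) and NCAPH (-1.71, adjusted p = 7.9e-14). Of the anaphase-promoting complex and partners, 15 of 16 were tested: 6 fell and 1 rose with enzalutamide in control cells, 5 rose and 1 fell with guide 1, 0 changed with guide 2 in enzalutamide, and 5 fell and 4 rose in the vehicle libraries labelled guide 2, a split that became 11 and 2 with median-of-ratios scaling. There UBE2S, which extends ubiquitin chains for the complex, fell (-1.63, limma adjusted p = 3.1e-08). Of 10 MuvB and DREAM subunits, 2 fell with enzalutamide and 2 rose with guide 1, shares near or below those of all genes. With guide 2 in enzalutamide 2 fell, and in the vehicle libraries labelled guide 2, 6 fell and 2 rose (8 and 1 with median-of-ratios scaling), with LIN9 at -0.88 (adjusted p = 1.1e-09) and the pocket protein RBL1 at -0.86 (adjusted p = 4e-09).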

How the data were processed

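RNA of 18 libraries, 3 in each of 6 groups, was prepared with a stranded mRNA kit and sequenced in pairs, per the labels' protocols. The authors deposited 1 table of TPM, and STAR and GRCh38 are named in the submitters' processing notes. The sources used here name neither the counting tool nor the annotation, and give no read depth, so precision is judged from replicates alone.

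Of 37347 rows, the 37 that were mitochondrially encoded were dropped, and each column was rescaled to a sum of 1000000. The 10345 rows without a symbol stayed in that sum, at 15.2% to 20.4% of it, and were left out of the tests. Rows sharing a symbol were summed for 32 symbols and left out for 3 symbols with 5 or more rows. Genes with at least 1 TPM in 3 libraries (16067, all 45 members among them) were fitted on log2(TPM + 1) in limma 3.58.1 (R 4.3.3) with a mean for each group, 12 residual degrees of freedom, empirical Bayes moderation and Benjamini-Hochberg adjustment over all genes tested. A gene was called at an adjusted p under 0.05, and fold changes on this scale understate those of low genes. Tested on simulated data for enzalutamide in control cells (5 runs, 200 changed genes among 16067), the fit recovered 78% of genes changed by 0.5 and 93.6% of those changed by 1 on the log2 scale, with 4.34% of calls false. The simulated noise was independent and normal, with 1 SD per gene shared by all groups. In the data the median SD of a group ran from 0.0371 to 0.139 and many more genes were called, so these rates check the code and not the real calls. Promoter windows came from RefSeq (GRCh38.p14). Python 3.11.15 was used with matplotlib 3.10.9, pandas 2.3.3 and numpy 2.4.6.

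The members and all lists were chosen with earlier results of these data known. Values in each library are given for the member with the highest mean and the member with the largest enzalutamide change in each role, for the largest rises and falls among called members in the other comparisons, and for CDK1, CCNB1, PLK1, AURKA, MKI67, TOP2A, FOXM1 and BUB3. In lists of other genes the 2 largest rises and falls could be named. The alternatives tried were a pseudocount of 0.1 or 5, a filter of 5 TPM or none, TPM as deposited, median-of-ratios scaling, fits to the compared libraries alone, a replicate block, array weights and each library left out. A fit without the vehicle libraries labelled guide 2 was chosen after seeing the data.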

Additional observations from a re-analysis of the deposited data

Results flagged for a closer look

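The enzalutamide effect differed between guide 1 and the control guide for 26 of 45 genes, by the interaction term in limma at a Benjamini-Hochberg adjusted p under 0.05. In log2(TPM + 1) the difference was 0.24 for CDK1, 0.49 for CCNB1, 0.48 for PLK1, 0.46 for AURKA, 0.43 for FOXM1, 0.64 for CDC20, 0.77 for AURKB and 0.61 for MYBL2. A value above 0 means that the gene fell less, or rose, in enzalutamide with guide 1. These values also rest on the guide 1 vehicle libraries, the group with the widest spread (median SD over the 45 genes 0.129). Against control vehicle those libraries had changes of -0.43 for CDC20 and -0.31 for AURKB, which enter the differences above. Leaving out 1 library at a time gave 23 to 32 of the 45 genes, where 1379 to 3897 of all genes were called above 0.

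The same test for guide 2 passed for 44 genes, with 0.51 for CDK1, 2.07 for CCNB1, 3.31 for PLK1, 2.52 for AURKA, 1.39 for FOXM1, 3.35 for CDC20, 2.17 for AURKB and 0.76 for MYBL2. These values rest on the vehicle libraries labelled guide 2, in which OGDHL was not lower than in control.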

How the results depend on the processing

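Read depth is unknown, and with 3 libraries a group the guide 1 vehicle comparison is the least secure. With TPM as deposited, 20 members fell for enzalutamide in control cells (11.6% of all genes). In enzalutamide 7 rose for guide 1 (2.15%) and 3 fell for guide 2 (0.574%). For guide 1 in vehicle, 37 passed with array weights, where 7036 of all 16067 genes rose and 5242 fell. With no filter 8 passed, where 2759 of 26863 genes rose and 993 fell. The replicate block gave 9, where 2473 of 16067 genes rose and 1173 fell. In a fit to its own libraries 0 members and 0 of 14025 genes passed. For enzalutamide within guide 1, 34 passed with array weights, where 5589 of 16067 genes rose and 5948 fell. In a fit to its own libraries 3 passed, where 1188 of 14186 genes rose and 1789 fell. The array weights had not converged. Each fit with 1 library left out gave counts in the ranges below, with those of all 15235 to 16050 genes tested in brackets. For enzalutamide in control cells 33 to 38 members fell (3321 to 3730). With guide 1 in vehicle 0 to 36 were called (121 to 4716 rose, 35 to 4375 fell). With guide 2 in vehicle 44 to 44 fell (3532 to 3701). In enzalutamide 33 to 37 rose with guide 1 (1929 to 2663) and 24 to 31 fell with guide 2 (455 to 717). Enzalutamide within guide 1 gave 10 to 27 calls (2396 to 4844 rose, 2866 to 4544 fell). Within guide 2 it gave 44 to 44 (3354 to 3545 rose, 6666 to 7668 fell). The interaction was called above 0 for 23 to 32 with guide 1 (1379 to 3897) and 43 to 44 with guide 2 (2880 to 3065). Guide 2 less guide 1 was called lower for 44 to 45 (2376 to 3067).

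With TPM as deposited, estimates for guide 1 in vehicle reversed to -0.25 for ANLN, -0.29 for BUB1, -0.043 for CENPE, -0.18 for CENPF, -0.40 for KIF20A, -0.17 for MKI67, -0.34 for PRC1, -0.46 for PTTG1, -0.29 for TOP2A and -0.15 for TTK, and within guide 1 to 0.19 for AURKA, 0.037 for MKI67 and 0.18 for PLK1. With median-of-ratios scaling CDC25B reversed to -0.34 in the vehicle libraries labelled guide 2 and to 0.27 in the guide 2 interaction. The cause was not tested. Of 3877 values of 23 named members under alternatives, 3568 stayed on the same side of the threshold (40 of them estimates that were not called and changed sign), 208 lost the call, 86 gained it and 15 reversed.

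Same-numbered libraries did not deviate together: in no pair of groups were all 3 correlations over 0.1, and each library correlated best with its own number in 3 of 15 pairs of groups. The replicate block gave 37 calls for enzalutamide in control cells, 9 for guide 1 and 44 for guide 2 in vehicle, and 35 for guide 1 and 28 for guide 2 in enzalutamide. Of all 16067 genes it called 3567 higher and 3829 lower, then 2473 and 1173, 8115 and 3787, 2418 and 2143, and 1251 and 686.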
